A study of Mus musculus with 14 samples.

Results

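Transforming growth factor beta (TGF-beta) signaling was followed through 10 genes, chosen by name: the ligands Tgfb1, Tgfb2 and Tgfb3, the receptors Tgfbr1, Tgfbr2 and Tgfbr3, the intracellular inhibitor Smad7, the secreted target Tgfbi, the ligand-binding protein Ltbp1, and the activin subunit gene Inhba. The choice was made with earlier results of these data known. All 10 were among the 53801 genes quantified, and all 10 were among the 16287 genes that passed the filter on low counts. RNA-seq was done on 14 tumors of CT26, a colon carcinoma cell line of Balb/c origin, grown from barcoded cells in both flanks of female Balb/c mice aged 6 to 8 weeks at transplantation. A total of 5 doses of control IgG or of anti-PD-1 antibody were given every 3 days from day 7, and tumors were taken 3 days after the last dose. The control group held 5 tumors of 4 IgG-treated mice, the responder group 5 tumors of 4 mice given anti-PD-1, and the non-responder group 4 tumors of 3 mice given anti-PD-1, with mice read from the tumor numbers. Responder and non-responder tumors had received the same antibody, and the study told them apart by their size when treatment ended, set against the control IgG tumors, so these groups were not assigned at random. All tumors came from 1 cell line, and each library mixed cancer cells with the cells of the host.

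Latent TGF-beta is secreted bound to LTBP proteins and is stored in the matrix until integrins or proteases release it. The freed ligand binds TGFBR2, which recruits and activates TGFBR1, while the coreceptor TGFBR3 (betaglycan) presents ligand. The activated receptors phosphorylate SMAD proteins, which drive target genes that include inhibitors of the same pathway, such as Smad7. In tumors the pathway is known for acting on fibroblasts and matrix and for restraining T cells. Activin A, a dimer of INHBA, uses its own receptors but the same SMAD branch.

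Total expected counts were between 33237744 and 48481461 per tumor. In responder tumors, 9 of 10 T cell marker genes were higher than in non-responder tumors, with summed levels of 62.4 to 115 CPM (counts per unit of normalised library size) in responders, 35.6 to 43.3 in non-responders and 27.3 to 58.6 in control IgG tumors. Of 7 erythroid genes tested, 5 were called lower in responders than in non-responders (4.82% of all genes were). Sums over the erythroid list were 59.6 to 283 CPM in responders, 376 to 2070 in non-responders and 71.7 to 1910 in control IgG tumors. The part of these cell types in the results below was not tested. Non-responder tumor 33R stood apart, since its log2 level fell by 0.238 per doubling of gene length, whereas the slopes lay between 0.0427 and 0.0626 in responders, were 0.00693, -0.0336 and 0.0439 in non-responders 29L, 32R and 33L, and lay between -0.0713 and 0.0304 in control IgG tumors. The mean fragment length estimated from the files was 269.5 to 277.0 bases in responders, 277.5 to 287.8 in non-responders and 268.7 to 277.7 in control IgG tumors, so the anti-PD-1 groups did not overlap in it. The part of fragment length in the results below was not tested. Among markers of colon epithelium, Krt20 was between 202 and 489 CPM, whereas Epcam did not exceed 5.33 CPM, Vil1 did not exceed 0.174 CPM, and Cdx1 had no counts in any tumor. In bulk tumors, fewer cells of a type and less RNA per cell cannot be told apart.

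Compared on the TPM scale, which divides by the length of each gene, Ltbp1 had the highest median level over the 14 tumors at 85.7 TPM, followed by Tgfbi at 58.7, Tgfb1 at 45.6, Tgfbr2 at 38.6, Tgfbr3 at 23.6, Tgfbr1 at 14.0, Inhba at 9.77, Tgfb3 at 8.45, Smad7 at 6.94 and Tgfb2 at 0.245. Neighbours in this order had overlapping ranges, with the exception of Smad7 and Tgfb2. Inhba exceeded Tgfb3 in 7 of 14 tumors, so their order was not set, whereas Tgfbr2 exceeded Tgfbr3 in all 14. Tgfb1 was thus the main TGF-beta ligand transcript and Tgfb2 was measured on few counts, 18 to 47 counts per tumor.

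Responder tumors differed from non-responder tumors in 2 of the 10 genes, against 9.9% of all genes tested (edgeR quasi-likelihood test, adjusted p under 0.05). Tgfb3 was higher and Smad7 was lower in responders. Compared with control IgG tumors, responders differed in 2 of 10 genes, against 13.2% of all genes, and there Smad7 and Inhba were lower. Between non-responder and control IgG tumors 0 of 10 genes were called, against 0% of all genes by edgeR, and the unadjusted p was under 0.05 for 1 of the 10 (Tgfbi) and for 758 of all genes, while DESeq2 called 18 genes, none of the 10. The median log2 fold change over the 10 genes was 0.02, 0.01 and -0.08 in the 3 comparisons, beside medians of 0.006, -0.011 and 0.006 over all genes. Unadjusted p-values under 0.05 were found for 5 of 10 genes against non-responders (27.8% of all genes), for 6 of 10 against control IgG (27.9%), and for the 1 of 10 named above between non-responders and control IgG (4.65%). The ranges of the groups did not overlap for 2 of 10 genes between responders and non-responders (12.8% of all genes), for 2 of 10 between responders and control IgG tumors (15.1%), and for 0 of 10 between non-responders and control IgG tumors (1.25% of all genes, 0.718% higher and 0.528% lower). The 3 comparisons share groups of tumors and are not independent of each other.

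**Figure D1:**
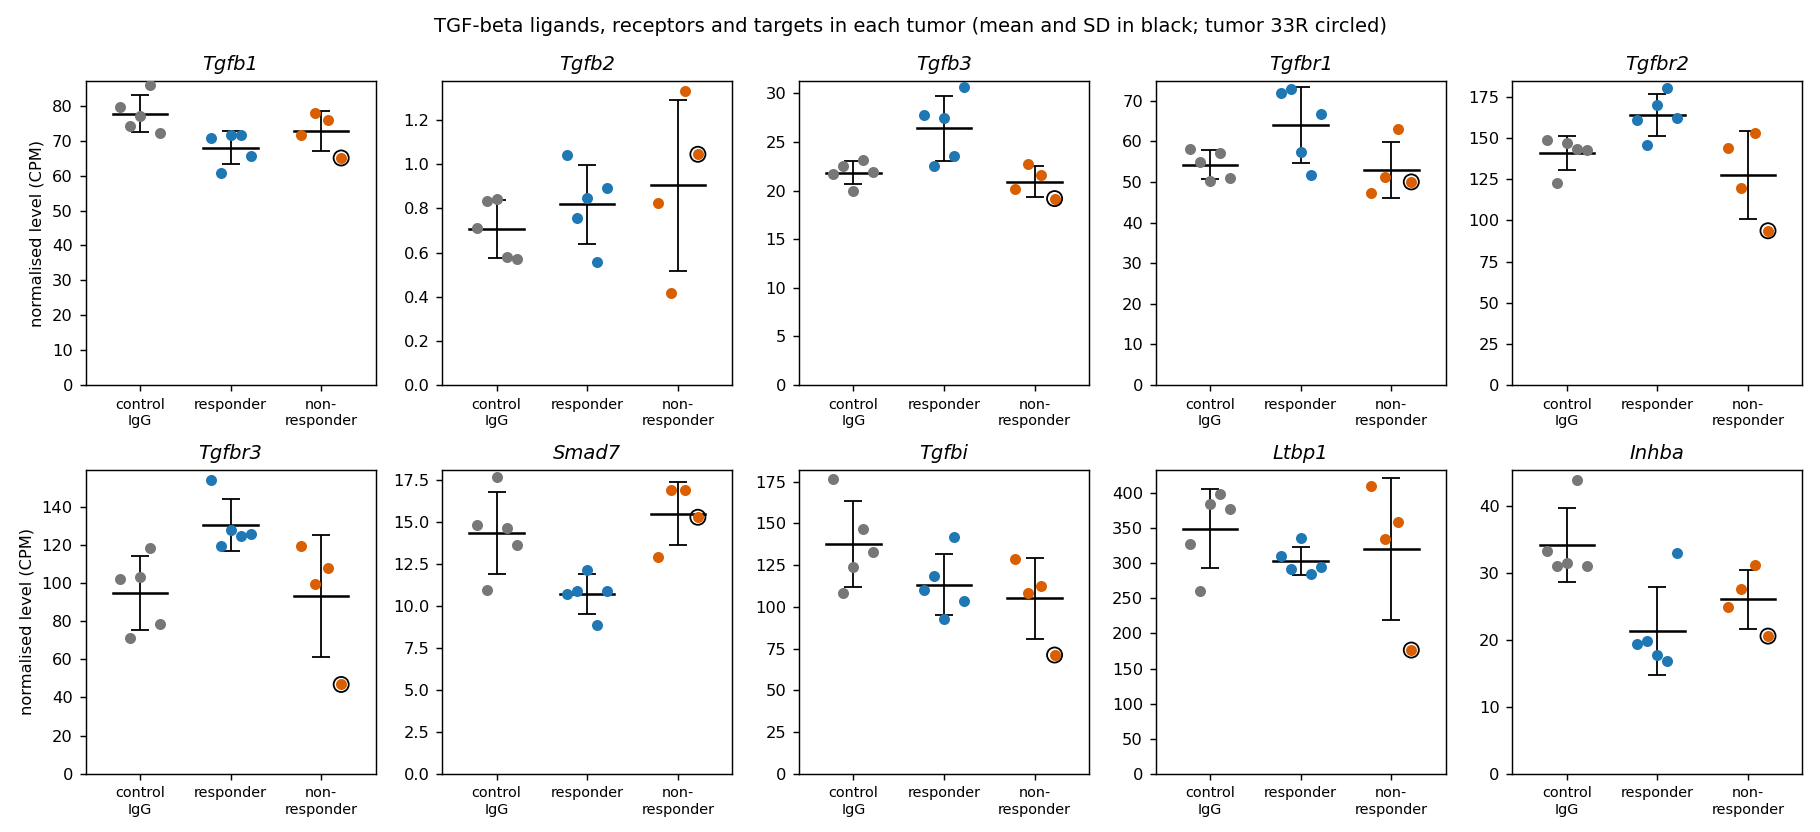
CPM of each of the 10 genes (vertical axes, each starting at 0) in every control IgG, responder and non-responder tumor; points are tumors, black lines and bars are the mean and SD, and the circled point is tumor 33R. The responder points of Smad7 lie below all non-responder points, and those of Tgfbr3 lie above the points of both other groups.

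**Figure D2:**
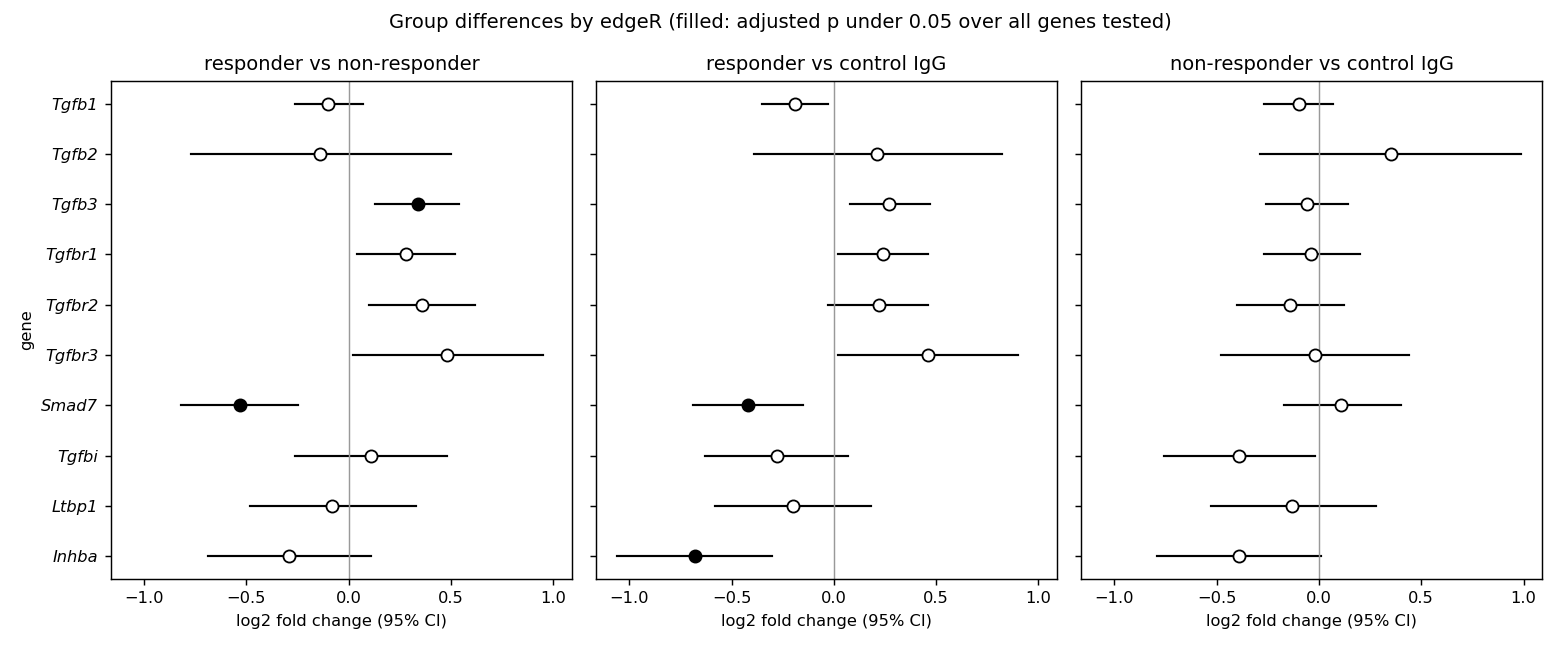
Log2 fold change of each gene (horizontal axis) with its 95% confidence interval in the 3 comparisons, from edgeR; filled points have an adjusted p under 0.05. Tgfb3 and Smad7 are filled for responders against non-responders, Smad7 and Inhba for responders against control IgG, and no gene is filled for non-responders against control IgG.

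Values per tumor are given below in CPM and in a fixed order: control IgG tumors 14L, 14R, 16R, 17R and 20R, responder tumors 24L, 26R, 30L, 30R and 35L, and non-responder tumors 29L, 32R, 33L and 33R. Adjusted p-values are those of edgeR with Benjamini-Hochberg adjustment over the 16287 genes, and fold changes are log2.

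Among the ligands, Tgfb3 differed between the anti-PD-1 groups. Tgfb3 (chr12:86056745-86079041, minus strand, mm10) was at 21.7, 22.5, 19.9, 23.2 and 21.9 CPM in control IgG tumors, at 27.8, 22.5, 27.5, 23.6 and 30.7 in responders, and at 20.1, 22.8, 21.6 and 19.2 in non-responders. Of the 5 responder tumors, 4 exceeded every non-responder tumor, and responder 26R lay just below non-responder 32R. Responders exceeded non-responders by 0.34 (SE 0.10, adjusted p = 0.0393), and control IgG tumors by 0.27 (SE 0.09, adjusted p = 0.0551). Leaving out 1 tumor kept the fold change against non-responders between 0.28 and 0.39, but the adjusted p reached 0.0507 without 14L, 0.0509 without 20R, 0.0937 without 24L, 0.0662 without 29L, 0.0733 without 30L, 0.0564 without 32R, 0.0753 without 33R and 0.0783 without 35L. Against control IgG tumors the adjusted p was 0.0277 without 26R and 0.0307 without 33R. With the trend over gene length removed, the fold change against non-responders was 0.24 (adjusted p = 0.12). Tgfb3 overlaps the end of Ttll5 on the opposite strand, and RSEM's default settings, which the study names, do not use strand, so reads of the overlap cannot be told apart by strand.

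Tgfb1 (chr7:25687002-25705077, plus strand) was at 79.6, 74.2, 77.1, 85.9 and 72.2 CPM in control IgG tumors, at 70.7, 60.8, 71.7, 71.5 and 65.6 in responders, and at 71.7, 78.1, 75.9 and 65.1 in non-responders. Each responder tumor was thus below each control IgG tumor, as in 6.72% of all genes, but the fold change of -0.19 (SE 0.07) did not pass the test (adjusted p = 0.101; 0.0488 without non-responder 33R). Against non-responders it was -0.10 (SE 0.08, adjusted p = 0.454). Tgfb2 ranged from 0.417 to 1.33 CPM, with both extremes in non-responder tumors, and its interval for responders against non-responders ran from -0.77 to 0.50, which was too wide to detect a change of the size seen for Tgfb3.

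The share of Tgfb3 among the 3 ligands within a tumor did not overlap between responders and either other group. Tgfb3 made up 14.1%, 15.4%, 13.4%, 14.0% and 15.4% of the summed ligand TPM in control IgG tumors, 19.3%, 18.1%, 18.8%, 16.6% and 22.0% in responders, and 14.4%, 14.9%, 14.6% and 14.9% in non-responders. The lowest responder share, 16.6% in 30R, was above the highest share of the other 9 tumors, 15.4%. The part of gene length in these shares was not tested. Tgfb1 supplied most of the remainder, with 77.5% to 83.1% in responders, 84.1% to 86.2% in control IgG tumors and 84.3% to 85.2% in non-responders. The share was chosen after values were seen and is given without a test. How often shares built from other genes would not overlap was not computed, so there is no background to read it against.

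**Figure D3:**
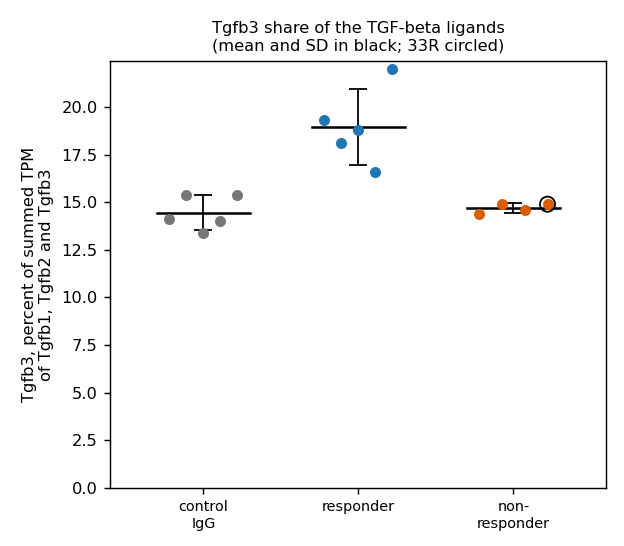
Tgfb3 as a percent of the summed TPM of Tgfb1, Tgfb2 and Tgfb3 (vertical axis from 0) in every tumor of the 3 groups; points are tumors, black lines and bars are the mean and SD, and tumor 33R is circled. The 5 responder tumors lie between 16.6% and 22.0%, above the other 9 tumors, which lie between 13.4% and 15.4%.

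The genes of the 3 receptors all had fold changes above 0 in responders, and none passed the test. The summed macrophage markers were at 2010 to 2430 CPM in responder, 1790 to 2060 in control IgG and 1650 to 1990 in non-responder tumors. Against non-responders, 1 of 10 was called higher (5.08% of all genes were), with a median log2 fold change of 0.31. The part of the macrophage markers in the receptor values was not tested. Tgfbr3 (chr5:107106570-107289629, minus strand) was at 102, 71.4, 103, 118 and 78.4 CPM in control IgG tumors, at 154, 120, 128, 125 and 126 in responders, and at 119, 99.5, 108 and 46.8 in non-responders. Responder tumors did not overlap either other group, as in 6.8% of all genes against non-responders and 8.34% against control IgG tumors, although responder 26R (119.6 CPM) was next to non-responder 29L (119.3 CPM). The fold changes were 0.48 (SE 0.22, adjusted p = 0.167) against non-responders and 0.46 (SE 0.20, adjusted p = 0.155) against control IgG tumors. Without tumor 33R, the lowest of all tumors, the fold change against non-responders was 0.28 (adjusted p = 0.286), and that against control IgG tumors stayed at 0.46 with an adjusted p of 0.0182.

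Tgfbr2 (chr9:116084293-116175360, minus strand), the receptor that binds ligand, was at 149, 123, 147, 144 and 143 CPM in control IgG tumors, at 161, 146, 170, 180 and 162 in responders, and at 144, 120, 153 and 93.7 in non-responders. The groups overlapped, and responders exceeded non-responders by 0.36 (SE 0.12, adjusted p = 0.0725), or 0.25 without 33R (adjusted p = 0.127) and 0.47 without 33L (adjusted p = 0.0339). Tgfbr1 (chr4:47353222-47414931, plus strand), the signaling kinase, was at 58.1, 54.9, 50.2, 57.0 and 51.1 CPM in control IgG tumors, at 72.0, 72.9, 57.3, 51.7 and 66.8 in responders, and at 47.4, 51.2, 63.2 and 50.02 in non-responders. A total of 3 responder tumors exceeded all 9 others, and both tumors of responder mouse 30 did not. The fold change over non-responders was 0.28 (SE 0.11, adjusted p = 0.123; 0.38 and 0.0402 without 33L), and over control IgG tumors it was 0.24 (SE 0.10, adjusted p = 0.149).

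Smad7 (chr18:75367529-75395935, plus strand), which blocks SMAD phosphorylation at the receptor and is itself induced by TGF-beta, was lower in responders. It was at 14.8, 10.9, 17.7, 14.6 and 13.6 CPM in control IgG tumors, at 10.7, 10.9, 12.2, 8.86 and 10.9 in responders, and at 12.9, 16.9, 16.9 and 15.3 in non-responders. All responder tumors were below all non-responder tumors, as in 6.04% of all genes, and control IgG tumor 14R lay within the responder range. The fold change was -0.53 (SE 0.13, adjusted p = 0.025) against non-responders and -0.42 (SE 0.13, adjusted p = 0.0396) against control IgG tumors. Leaving out 1 tumor kept the first between -0.61 and -0.47, but the adjusted p was 0.0595 without 24L, 0.063 without 30R, 0.0688 without 32R, 0.0518 without 33L and 0.0506 without 33R. Against control IgG tumors the call was lost without any one of 8 tumors, at adjusted p-values of 0.0693 (14L), 0.0974 (16R), 0.0789 (17R), 0.0685 (20R), 0.0837 (24L), 0.0624 (26R), 0.0983 (30R) and 0.0632 (35L). The effective length that RSEM gave Smad7 ranged from 1944 to 3941 bases between tumors, and on the log2(TPM + 1) scale its fold change against non-responders was -0.32 (limma, adjusted p = 0.329).

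Inhba (chr13:16011851-16031621, plus strand) was lower in responders than in control IgG tumors. It was at 33.2, 31.0, 31.5, 43.9 and 31.0 CPM in control IgG tumors, at 19.3, 19.8, 17.7, 16.8 and 33.0 in responders, and at 24.9, 27.6, 31.1 and 20.5 in non-responders. In all, 4 responder tumors were below all 9 others, and responder 35L was within the control range. The fold change against control IgG tumors was -0.68 (SE 0.18, adjusted p = 0.0225), and it was -0.56 without control 17R (adjusted p = 0.0613), -0.64 without 24L (0.0624), -0.62 without 30L (0.0531), -0.60 without 30R (0.0593) and -0.89 without 35L (0.00167). Against non-responders it was -0.29 (SE 0.19, adjusted p = 0.336), and without 35L -0.50 (adjusted p = 0.0441). Non-responders lay between the other groups, at -0.39 against control IgG tumors (SE 0.19, adjusted p = 0.931).

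Tgfbi and Ltbp1 were not called in any comparison. Tgfbi (chr13:56609523-56639562, plus strand), a secreted matrix protein induced by TGF-beta, was at 177, 108, 124, 147 and 133 CPM in control IgG tumors, at 110, 119, 92.9, 142 and 104 in responders, and at 129, 108, 113 and 71.2 in non-responders. Between flanks, Tgfbi differed by log2 0.71 in control mouse 14, -0.61 in responder mouse 30 and 0.66 in non-responder mouse 33 (left minus right). Tumor 33R is part of the last pair. Between single tumors of different mice, the median size of the difference was 0.27, 0.24 and 0.25 in these groups. The group fold changes, which compare averages of tumors, were -0.39 to 0.11. Ltbp1 (chr17:75005568-75392512, plus strand) ranged from 260 to 398 CPM in control IgG tumors, from 285 to 336 in responders and from 176 to 410 in non-responders, with the lowest value in 33R. Over the 10 genes, the median size of the difference between flanks was 0.247 in mouse 14, 0.185 in mouse 30 and 0.467 in mouse 33, beside 0.258, 0.177 and 0.424 over all genes tested.

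The genes around the 10 were read from lists of the wider pathway. In counts of genes, higher and lower mean called in that direction at an adjusted p under 0.05. The lists were chosen with earlier results of these data known, so their called shares are a description. Of 21 SMADs and SMAD regulators tested, 0 were higher and 3 were lower in responders than in non-responders, namely Skil, Pmepa1 and Tgif1, and the 3 were also those lower against control IgG tumors (list median -0.00 and -0.05). The count of 3 against non-responders depended on the setting: it was 0 with the left tumor of each mouse kept, with the 2 groups alone and on both TPM scales, and 1 with the right tumor kept. Against control IgG it was 5 by DESeq2 and by limma-voom with mouse as a random effect, and 1 on both TPM scales. SKIL (SnoN) and TGIF1 are SMAD corepressors, and PMEPA1 sequesters receptor-regulated SMADs. Like Smad7, these 3 genes encode negative regulators, but whether negative regulators as a group were lower was not tested. Background shares in the lower direction were 4.82% of all genes against non-responders and 5.3% against control IgG tumors. In either direction, 14.3% of the list was called in each comparison, not far from the 9.9% and 13.2% of all genes. The other 18 genes of this list were not called in either comparison, the receptor-regulated and common SMAD genes among them.

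Pmepa1 was at 29.3, 22.0, 22.3, 22.4 and 26.2 CPM in control IgG tumors, at 14.9, 13.1, 13.8, 11.7 and 13.3 in responders, and at 13.6, 18.6, 30.4 and 25.2 in non-responders. Responders lay below all control IgG tumors, as in 6.72% of all genes (-0.87, SE 0.17, adjusted p = 0.00515). Against non-responders, where 29L lay within the responder range, the fold change was -0.71 (SE 0.18, adjusted p = 0.0265). That adjusted p was 0.0518 without 24L, 0.0674 without 30R, 0.062 without 33L, where the fold change was -0.50, and 0.0747 without 33R. Tgif1 was at 77.0, 72.5, 82.0, 87.7 and 78.5 CPM in control IgG tumors, at 45.4, 61.0, 65.8, 47.4 and 60.7 in responders, and at 81.8, 83.7, 70.6 and 75.7 in non-responders. All responders were below all other tumors, as in 6.04% of all genes against non-responders and 6.72% against control IgG tumors. The fold changes of Tgif1 were -0.48 (SE 0.11, adjusted p = 0.0184, or 0.0557 without 32R) against non-responders and -0.51 (SE 0.10, adjusted p = 0.00613) against control IgG tumors. Skil was at 28.8 to 42.0 CPM in responders, 42.3 to 56.7 in non-responders and 39.1 to 54.2 in control IgG tumors. Its fold changes were -0.51 (SE 0.12, adjusted p = 0.0122) against control IgG tumors and -0.45 (SE 0.13, adjusted p = 0.0379) against non-responders, where the adjusted p exceeded the threshold without any one of 17R, 24L, 30L, 30R, 32R, 33L, 33R and 35L (highest 0.0952, without 24L, with fold changes of -0.53 to -0.33 over all tumors left out). Over the 13 other settings, Skil ranged from -0.64 to -0.06 against non-responders (called in 7, adjusted p up to 0.834) and from -0.62 to -0.28 against control IgG tumors (called in 11, up to 0.343), with the smallest changes on the TPM scales. Pmepa1 and Tgif1 against non-responders ranged from -0.75 to -0.31 (called in 7, up to 0.288) and from -0.58 to -0.21 (called in 8, up to 0.218), and against control IgG tumors they were called in 13 and 11 settings.

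**Figure D4:**
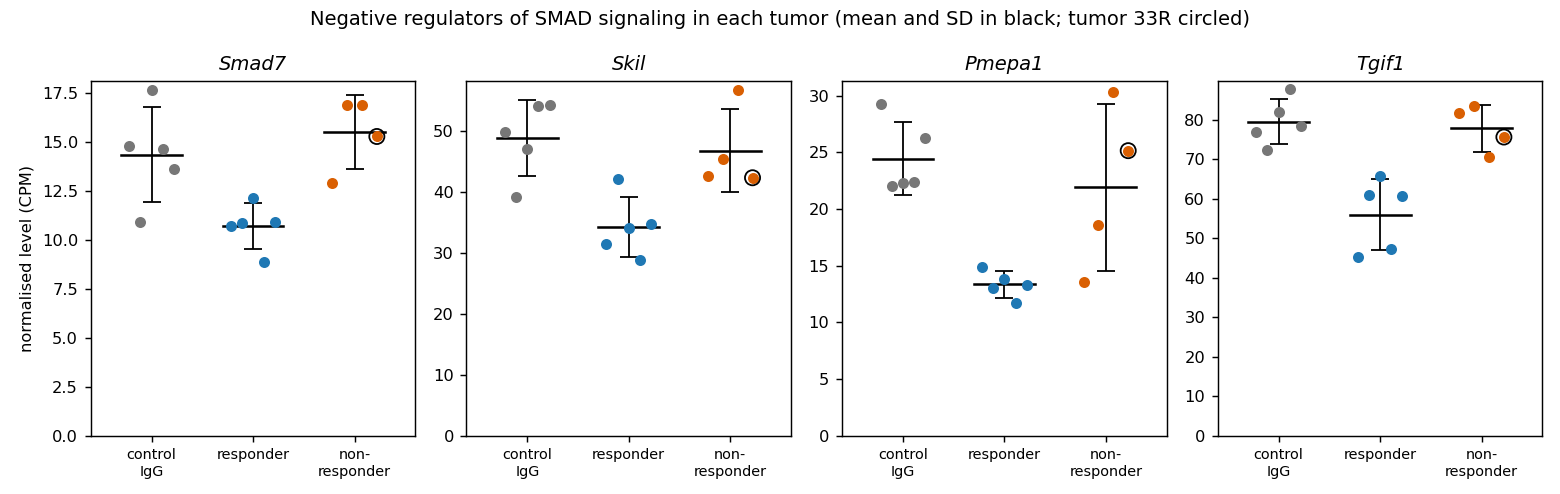
CPM (vertical axes from 0) of Smad7, Skil, Pmepa1 and Tgif1 in every tumor of the 3 groups; points are tumors, black lines and bars are the mean and SD, and tumor 33R is circled. Responder means of 10.7, 34.2, 13.4 and 56.0 CPM are each below the means of both other groups, with overlap of single tumors for Smad7 and Skil against control IgG and for Pmepa1 against non-responders. Skil, Pmepa1 and Tgif1 are the called genes of the 21 SMADs and SMAD regulators tested.

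Of 14 further receptors and coreceptors of the superfamily, 3 were higher and 0 lower in responders than in non-responders (5.08% of all genes were higher), and the same 3 were higher against control IgG tumors (7.88% of all genes). In either direction, 21.4% and 35.7% of the list were called, against 9.9% and 13.2% of all genes. Rgmb, a coreceptor for bone morphogenetic proteins (BMPs), was at 65.1 to 81.7 CPM in responders, 38.8 to 49.7 in non-responders and 41.5 to 47.7 in control IgG tumors. Its fold changes were 0.70 (SE 0.09, adjusted p = 0.00246) and 0.68 (SE 0.08, adjusted p = 0.000483), and it was called whichever tumor was left out. RGMB is also known to bind PD-L2, a ligand of PD-1. Acvrl1 and Eng, a receptor and a coreceptor that are prominent in endothelium, had fold changes against non-responders of 0.41 (SE 0.09, adjusted p = 0.018; 0.0512 without 24L and 0.0548 without 32R) and 0.48 (SE 0.13, adjusted p = 0.0308; 0.0779 without 24L, 0.0751 without 30R, 0.0738 without 32R and 0.0725 without 33R). Of 10 endothelial markers, 0 were called against non-responders and 3 were higher against control IgG tumors, with sums of 285 to 352 CPM in responders, 225 to 292 in non-responders and 193 to 280 in control IgG tumors, and their part in the change of Acvrl1 and Eng was not tested. Acvr2a and Rgma were lower against control IgG tumors, at -0.43 (adjusted p = 0.025; called in 8 of 13 other settings) and -0.44 (adjusted p = 0.0373; called in 9 of 13). Against non-responders they were at -0.29 (SE 0.12, adjusted p = 0.144) and -0.32 (SE 0.14, adjusted p = 0.145), and whether the 2 comparisons differ was not tested. Without 1 tumor these reached adjusted p-values of 0.0658 for Acvr2a (17R, with 30L and 30R also above the threshold) and 0.0928 for Rgma (16R, with 14L, 17R, 20R, 24L, 26R, 30L and 30R also above it).

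Of 16 other ligands of the superfamily tested, 0 were called against non-responders (9.9% of all genes). Against control IgG tumors 2 were higher, 12.5% of the list against 13.2% of all genes called. These were Gdf11 at 0.64 (SE 0.17, adjusted p = 0.025; above the threshold without 16R, 17R, 20R, 24L or 30R, at most 0.0699) and Lefty1 at 0.49 (SE 0.13, adjusted p = 0.025; 0.0507 without 14L and 0.0545 without 30R), both at low levels of 2.80 to 3.67 and 3.24 to 3.49 CPM in responders. The mean of Lefty1 was 3.39 CPM in responders, 2.41 in control IgG and 3.38 in non-responder tumors, where its fold change over control IgG was also 0.49 (SE 0.14, unadjusted p = 0.00354, adjusted p = 0.931), and responders differed from non-responders by 0.01 (SE 0.14, adjusted p = 0.983). Of 12 secreted antagonists, 0 were called against non-responders (9.9% of all genes), and 16.7% of the list against control IgG tumors (13.2% of all genes). Against control IgG tumors, Fmod, which encodes the TGF-beta-binding proteoglycan fibromodulin, was higher at 2.90 (SE 0.57, adjusted p = 0.00515), from 0.343 to 1.43 CPM in control IgG tumors and 2.13 to 9.54 CPM in responders. Dcn, which encodes the related proteoglycan decorin, was lower at -0.88 (SE 0.18, adjusted p = 0.00573), from 218 to 400 and 122 to 201 CPM.

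Of 20 genes of ligand latency and activation, 2 were higher and 1 lower in responders than in non-responders, and 4 were higher and 3 lower against control IgG tumors. These were 15% and 35% of the list, against 9.9% and 13.2% of all genes. Emilin1, whose product limits processing of the TGF-beta precursor, was higher in both, at 0.47 (SE 0.10, adjusted p = 0.0143) and 0.48 (SE 0.09, adjusted p = 0.0047). Itgb5, a subunit of an integrin that activates latent ligand, was lower in both, at -0.37 (SE 0.09, adjusted p = 0.0251; 0.0686 without 24L, 0.066 without 32R and 0.0607 without 33L) and -0.45 (SE 0.09, adjusted p = 0.00463). Over the 13 other settings it ranged from -0.44 to -0.11 against non-responders (called in 9, adjusted p up to 0.567) and from -0.52 to -0.31 against control IgG tumors (called in 11, up to 0.145), and on both TPM scales 0 genes of the list were lower in either comparison. Among the relatives of Ltbp1, Ltbp2 was at 20.6 to 40.1 CPM in responders and 9.91 to 16.1 in control IgG tumors (1.17, SE 0.23, adjusted p = 0.00549). Its call against non-responders (0.88, SE 0.25, adjusted p = 0.0406) was lost in 9 of 14 fits that left out 1 tumor (17R, 20R, 24L, 26R, 29L, 30L, 30R, 32R or 33R), with adjusted p-values of up to 0.109. Ltbp4 moved the other way against control IgG tumors, from 362 to 622 CPM in controls and 294 to 349 in responders (-0.69, SE 0.17, adjusted p = 0.0184; 0.05 without 20R), and Itgb3 was higher (0.62, SE 0.12, adjusted p = 0.0055).

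Genes commonly induced by TGF-beta did not move one way. Of 38 tested, 2 were higher and 3 lower in responders than in non-responders, and 5 were higher and 4 lower against control IgG tumors, with list medians of 0.08 and 0.18. The calls made up 13.2% and 23.7% of the list, against 9.9% and 13.2% of all genes. The genes lower than in non-responders included Snai2 and Snai1, transcription factors of the epithelial-mesenchymal program, with Snai2 at -0.64 (SE 0.13, adjusted p = 0.0115) against non-responders and -0.72 (SE 0.12, adjusted p = 0.00218) against control IgG tumors. Snai2 was at 6.94 to 9.71 CPM in responders, below all non-responder (10.9 to 15.5) and control IgG tumors (12.2 to 15.5), as in 6.04% and 6.72% of all genes. Snai1 was lower in responders than in non-responders (-0.52, SE 0.13, adjusted p = 0.0221; 0.0595 without 24L, 0.0558 without 30R and 0.0584 without 33R), with means of 11.1 CPM in responder, 12.3 in control IgG and 16.0 in non-responder tumors. Its fold changes against control IgG tumors were -0.14 in responders (SE 0.12, adjusted p = 0.493) and 0.39 in non-responders (SE 0.13, unadjusted p = 0.00764, adjusted p = 0.931). Over the 13 other settings, the calls against non-responders were kept in 10 for Snai2 (-0.66 to -0.34), 7 for Snai1 (-0.54 to -0.23) and 9 for Pxdc1 (-0.71 to -0.27). Pxdc1 was lower in both comparisons, at -0.58 (SE 0.14, adjusted p = 0.0192; 0.0549 without 24L, 0.05 without 32R and 0.0577 without 33R) and -0.61 (SE 0.13, adjusted p = 0.00699). Il11, a cytokine of the interleukin-6 family, was at 6.44 to 11.7 CPM in responders and 14.3 to 22.7 in control IgG tumors (-1.01, SE 0.20, adjusted p = 0.00473).

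The genes that rose included Col1a2, a chain of type I collagen, at 0.47 (SE 0.14, adjusted p = 0.0475) against non-responders and 0.48 (SE 0.13, adjusted p = 0.0264) against control IgG tumors. The call against non-responders held in 3 of 14 fits that left out 1 tumor (without 14R, 26R or 33L), with adjusted p-values of up to 0.119, and that against control IgG tumors was lost without 14R, 20R, 24L or 30R, at up to 0.0775. Sema7a was at 94.97 to 103.4 CPM in responders, above non-responders (71.6 to 90.3) and control IgG tumors (62.6 to 81.7), as in 6.8% and 8.34% of all genes. Its fold changes were 0.33 (SE 0.09, adjusted p = 0.0342) and 0.40 (SE 0.08, adjusted p = 0.00647). The first of these exceeded the threshold without 24L, 26R, 30R, 32R, 33R or 35L (at most 0.0978). Id1, a target that BMP signaling also induces, was higher against control IgG tumors (0.45, SE 0.11, adjusted p = 0.0188; 0.0561 without 24L and 0.0527 without 30R). Summed fibroblast markers, a list that shares Col1a2 and Dcn with those above, were at 2920 to 4880 CPM in responders, 2370 to 4390 in non-responders and 2470 to 3200 in control IgG tumors, and their part in these changes was not tested. Between non-responder and control IgG tumors no gene of any of the 6 pathway lists was called by edgeR.

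Promoter windows of RefSeq (GRCm38.p6, 250 bases before to 50 after a gene's start) were present for 7 of the 10 genes. There was none for Tgfbr3, or for Tgfb3 and Smad7, the genes of the 10 called between responders and non-responders. The 3 windows shown are these: that of Inhba, which was lower in responders than in control IgG tumors, that of Snai1, which was called between responders and non-responders, and that of Tgfbi, a TGF-beta target that was not called. Capitals mark matches on either strand to the SMAD-binding letters CAGAC and GGCGC and to the AP-1 letters TGANTCA, which occur in 49.6%, 36.9% and 7.81% of the 32851 windows of all genes. All 3 windows are on the plus strand and are written 5′ to 3′.
Inhba (chr13:16011601-16011900): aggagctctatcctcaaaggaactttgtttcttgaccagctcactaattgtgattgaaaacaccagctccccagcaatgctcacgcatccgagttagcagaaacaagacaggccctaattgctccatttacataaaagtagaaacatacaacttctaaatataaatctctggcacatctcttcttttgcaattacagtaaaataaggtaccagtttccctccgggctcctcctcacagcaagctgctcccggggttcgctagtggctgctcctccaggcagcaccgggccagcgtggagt
Snai1 (chr2:167537945-167538244): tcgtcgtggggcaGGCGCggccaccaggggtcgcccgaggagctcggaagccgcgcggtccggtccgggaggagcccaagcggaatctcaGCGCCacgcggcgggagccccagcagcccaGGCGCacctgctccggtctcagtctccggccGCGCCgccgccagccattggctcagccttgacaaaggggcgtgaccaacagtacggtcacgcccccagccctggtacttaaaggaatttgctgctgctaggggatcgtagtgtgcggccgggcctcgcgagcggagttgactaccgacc
Tgfbi (chr13:56609336-56609635): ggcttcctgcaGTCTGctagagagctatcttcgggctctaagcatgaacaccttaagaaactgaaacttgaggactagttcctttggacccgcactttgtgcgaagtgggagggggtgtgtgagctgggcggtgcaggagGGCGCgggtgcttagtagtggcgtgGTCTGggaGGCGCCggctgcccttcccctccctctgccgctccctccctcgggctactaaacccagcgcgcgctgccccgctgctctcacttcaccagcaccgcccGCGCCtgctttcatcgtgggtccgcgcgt
The Inhba window held none of the 3 motifs, and 47.7% of its bases were G or C. The Snai1 window held 4 matches to GGCGC, and 70% of its bases were G or C. The Tgfbi window held 2 matches to CAGAC and 4 to GGCGC, of which a pair overlaps, and 63.3% of its bases were G or C. A match is a run of letters and not evidence of binding.

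The genes whose log2 CPM followed each ligand most closely over the 14 tumors were listed as a description. They were Tgfb1i1 (Pearson r = 0.906, Spearman rho = 0.943), Mta3 and Wbp2 for Tgfb1, and Tmem156 (r = 0.89, rho = 0.789), Btd and the T cell gene Cd8b1 (r = 0.846, rho = 0.881) for Tgfb3. They were Ric3 (r = 0.906, rho = 0.89), Mttp and Sox9 for Inhba, and Naalad2 (r = 0.849, rho = 0.837), Mmp9 and Nbl1 for Tgfb2, whose low counts make its pattern the least certain. The 14 points share libraries and groups, and each list is the top of 16287 genes.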

How the data were processed

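RNA-seq data of 14 CT26 tumors were analysed. The study's methods name a standard kit for mRNA libraries, then STAR 2.5 and RSEM on mm10 with default settings. The RSEM version was not given in the sources used here. The expected counts deposited by the authors are RSEM's estimated fragments per gene, not normalized. The TPM values deposited by the authors are the same estimates per effective length, brought to 1 common sum for every tumor, and the FPKM values the authors deposited were not used. Gene symbols were matched in GENCODE M21 for 53706 of 53801 genes.

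Expected counts were rounded and tested with edgeR 4.0.16 (R 4.3.3) by the quasi-likelihood test with TMM factors, filterByExpr, and all 14 tumors in 1 fit without covariates (biological coefficient of variation 0.2269). P-values were adjusted by Benjamini-Hochberg over 16287 genes, with calls at 0.05, and the test was checked on simulated data. Printed CPM values used the TMM library sizes. Alternatives were DESeq2 1.42.0, its size factors, limma 3.58.1 (voom, with or without mouse as a random effect, and on log2(TPM + 1) or log2(TPM + 0.1)), counts summed per mouse, 1 tumor per mouse, other filters, a length correction, the 2 groups alone, and leaving out each tumor. The 3 mice with both flanks sampled count as separate tumors in the main fit, so p-values measure the spread between tumors, of which some shared a host. The totals of 33237744 to 48481461 counts set the depth, and none of the 26 pairs of libraries within a group differed as little as sampling noise gives.

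The 10 genes and the lists were chosen with earlier results of these data known. Genes named besides the 10 are, per pathway list and comparison, up to 5 called genes with the lowest p, and the 3 genes most correlated with each ligand.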

Additional observations from a re-analysis of the deposited data

Results flagged for a closer look

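In 4 of the 30 sets of values (10 genes in 3 groups), 1 tumor lay far from the rest of its group by Dixon's test, where chance alone is expected to give about 1 in 20. Control IgG tumor 14R had a Tgfbr2 level of 123 CPM, below the other control tumors by a gap of 0.766 of the group's range. Responder 24L had a Tgfbr3 level of 154 CPM, above the other responders by a gap of 0.768. Inhba was high in control IgG tumor 17R, at 43.9 CPM with a gap of 0.827, and in responder 35L, at 33.0 CPM with a gap of 0.819. The critical value for 5 tumors is 0.71. The 2 Inhba values widen the spread of both groups that were compared, and the fold changes without each of them are given with the Inhba values above. In the non-responder group of 4 tumors no gene met the rule, although 33R was the lowest tumor of its group for 7 of the 10 genes.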

How the results depend on the processing

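No paired analysis was possible because the groups share no replicate numbers: each number belongs to 1 mouse of 1 group. Between responders and non-responders, edgeR called 1612 genes, 2 of them among the 10, against 2634 by DESeq2, 2973 by limma-voom with mouse as a random effect (whose estimated correlation within mice was negative, -0.2817, against 1491 by limma-voom without it and 1759 on counts summed per mouse), 520 and 841 with 1 tumor per mouse (left or right kept), and 689 with the 2 groups alone. Of the 10 genes, 0 were called with 1 tumor per mouse, either side kept, and 1 each with no filter, with the length trend removed, and with the 2 groups alone. Leaving out 1 tumor gave 569 to 1978 genes and 0 to 3 of the 10, with 0 without 24L, 32R or 33R. Without 33R there were 793 genes against non-responders and 3385 against control IgG. Against control IgG, leaving out 1 tumor gave 1190 to 3385 genes and 0 to 5 of the 10, with 0 without 17R, 24L or 30R and 5 without 33R. There the other settings called 4 of the 10 (DESeq2, and the 2 groups alone), 1 (limma-voom, and no filter), 7 and 0 (left and right tumor kept) and 0 (both TPM scales), against 2. Between non-responders and control IgG, 0 of 10 were called under each setting, and of all genes 18 were called by DESeq2, 3 with no filter, and 0 to 5 with 1 tumor left out.

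The TPM scales moved the median of all genes by 0.169 (pseudocount 1) and 0.235 (0.1) for responders against non-responders, which bears on every sign below that is from TPM. Signs turned only in comparisons in which the gene was not called. For responders against non-responders, Tgfb1 was at 0.15 on both TPM scales. Tgfb2 was at 0.03 summed per mouse, 0.07 and 0.11 with the left or right tumor, 0.03 and 0.14 on the TPM scales, and -0.38 to 0.12 over tumors left out. Tgfbi was at -0.12 with the left tumor and -0.02 to 0.22 over tumors left out. Ltbp1 was at 0.04 with mouse as a random effect, 0.24 on both TPM scales, and -0.26 to 0.06 over tumors left out. For non-responders against control IgG, Tgfbr1 was at 0.04 with the length trend removed and -0.14 to 0.01 over tumors left out. Tgfbr3 was at 0.05 summed per mouse, 0.11 with the left tumor, 0.02 with the length trend removed, and -0.16 to 0.19 over tumors left out. Ltbp1 was at -0.27 to 0.06 over tumors left out, and Smad7 was at -0.13 and -0.15 on the TPM scales. The causes were not tested.

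The calls of Tgfb3 and Smad7 against non-responders kept their direction under all 13 other settings, and passed the threshold in 7 and 9 of them. That of Inhba against control IgG passed in 10 of 13, and that of Smad7 in 8 of 13. Among the other genes named, Rgmb, Acvrl1, Eng, Emilin1, Ltbp2, Itgb3, Fmod, Dcn, Snai2, Pxdc1, Sema7a, Il11, Id1 and Pmepa1 against control IgG were called under all 13, with Fmod between 1.26 and 3.55. Calls kept in fewer were, against non-responders, Acvrl1 and Eng (11), Emilin1 (12), Ltbp2 (9), Sema7a (8) and Col1a2 (10), and against control IgG, Gdf11 and Lefty1 (11), Ltbp4 (10) and Col1a2 (12).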
